A study of Haliotis discus hannai with 24 samples.

Results

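The 8 eyestalk libraries of the Pacific abalone Haliotis discus hannai, among 24 libraries of sensory organs, fell into 2 sets of 4 by how widely their counts were spread over genes. A library was placed in the narrow set if it detected fewer than 6000 genes, or if 1 gene held more than 50% of its counts. This took right eyestalk replicates 1 and 2 and left eyestalk replicates 2 and 3 into the narrow set. Right eyestalk replicates 3 and 4 and left eyestalk replicates 1 and 4 formed the broad set, so each set held 2 left and 2 right libraries. All libraries came from excised organs of animals whose genotype is labelled only as aquaculture, and all carry the same batch value. The other 16 libraries are of cephalic and epipodial tentacles, 4 for each side. The labels do not give age or the number of animals, so any p-value measures the spread between these libraries, which may be technical. The sets were chosen from the same counts that are described here, so differences between them are given without a test.

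The eyestalk of abalone stands beside the cephalic tentacle and carries an open, cup-shaped eye lined by a retina of photoreceptor and pigmented cells, with epithelium, muscle and nerve in the stalk. A bulk library of such an organ averages over all these cells, and fewer cells of a type and less RNA per cell cannot be told apart in it. The complexity of a library is the number of different molecules that were copied into it. Its counts are shares of a fixed total, so a gene that takes a large share lowers the share of every other gene without any change in their own RNA. The files do not pair gene identifiers with names, so identifiers are printed for few genes and no role can be given for them. No sequence is shown for the same reason.

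The total count was 1692939 in right eyestalk replicate 1, 4479096 in replicate 2, 2102017 in replicate 3 and 1955660 in replicate 4. In left eyestalk replicates 1 to 4 it was 1737333, 2201621, 1901899 and 1947670. Of 19700 genes listed, 14344 had at least 1 count in an eyestalk library. Right replicate 2 had the highest total. Of the other narrow libraries, left replicate 2 was above the broad range, left replicate 3 within it and right replicate 1 below it.

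The 4 narrow libraries were not alike. Right replicate 1 detected 3682 genes, left replicate 2 detected 4073 and left replicate 3 detected 4360, which was the value nearest to the bound from inside. Right replicate 2 detected 8371 genes and entered the set only by its leading gene, which held 70.8% of its counts. Among the broad libraries the numbers were 8418 in right replicate 3, the nearest from outside, 11090 in right replicate 4, 10631 in left replicate 1 and 10385 in left replicate 4. The leading gene of the other 7 libraries held between 3.49% and 24.1%. The label of 2 states is therefore met in part: right replicate 2 is narrow by its leading gene and close to right replicate 3 in the number of genes detected, although from a larger total of counts.

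Ranks of gene levels did not separate the sets fully. Over 5292 genes with a mean of at least 10 counts in the eyestalk, Spearman's rho was 0.642 to 0.889 within the broad set (median 0.752 over 6 pairs), 0.540 to 0.662 within the narrow set (median 0.592 over 6 pairs) and 0.412 to 0.715 between the sets (median 0.535 over 16 pairs). These values are descriptions over genes that share libraries and depth. The eyestalk library nearest to narrow left replicate 3 was broad right replicate 3 (0.715). Narrow right replicates 1 and 2 and left replicate 2 were each nearer to a cephalic tentacle library than to any eyestalk library, with rho values of 0.677, 0.697 and 0.719, and so was broad left replicate 1, with 0.821.

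Most of what the narrow set gained in mean share went to 2 genes, while the loss was spread over many. Between the mean shares of the sets, 1907 genes gained and 12437 lost, and the gains summed to 48.6 percentage points. The genes HDSC05049CG00020 and HDSC06460CG00010 held 36.4 points, which is 74.9% of the gains. Right replicate 2 weighed heavily in this: without it, a setting chosen after the data were seen, the pair gained 23.7 points, or 54.0% of the gains, and the gain of HDSC05049CG00020 alone went from 27.4 to 13.1 points. Leaving out any other library gave 34.7 to 44.9 points. The means do not describe each library. In left replicate 3 the leading gene was neither of the 2 and held 8.69% of the counts, against 6.92% and 4.94% for the pair. The 10 leading genes of that library held 42.7%, against 19.0% to 26.9% in the broad libraries. The 2 genes with the largest losses held 12.5% of the losses, and 2093 genes were needed to reach 90% of them.

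HDSC05049CG00020, with a coding length of 1731 bases, was the leading gene of right replicates 1 and 2. It held 24.1% and 70.8% of the counts there, and 9.38% and 6.92% in left replicates 2 and 3. In the broad libraries it held 0.0906% in right replicate 3, 0.342% in right replicate 4, 1.08% in left replicate 1 and 0.109% in left replicate 4. All narrow libraries lay above all broad ones, but the narrow values spread widely (27.8% ± 29.6, SD, n = 4, against 0.405% ± 0.464, n = 4). The gene was scarce in the tentacles, at 0% to 0.0332% of a cephalic library and 0.000473% to 0.00771% of an epipodial one.

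HDSC06460CG00010, a short gene of coding length 261, held 18.2% and 4.68% in right replicates 1 and 2 and 10.4% and 4.94% in left replicates 2 and 3. Its broad values were 0.0627% in right replicate 3, 0.446% in right replicate 4, 1.17% in left replicate 1 and 0.557% in left replicate 4. The sets again did not overlap (9.55% ± 6.33 against 0.559% ± 0.460, SD, n = 4 each). The 8 cephalic libraries held 2 counts of it in all, and the 8 epipodial libraries 2. The order of the libraries differed from that of HDSC05049CG00020: right replicate 2 was the highest for that gene and the lowest narrow library for this one.

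**Figure D1:**
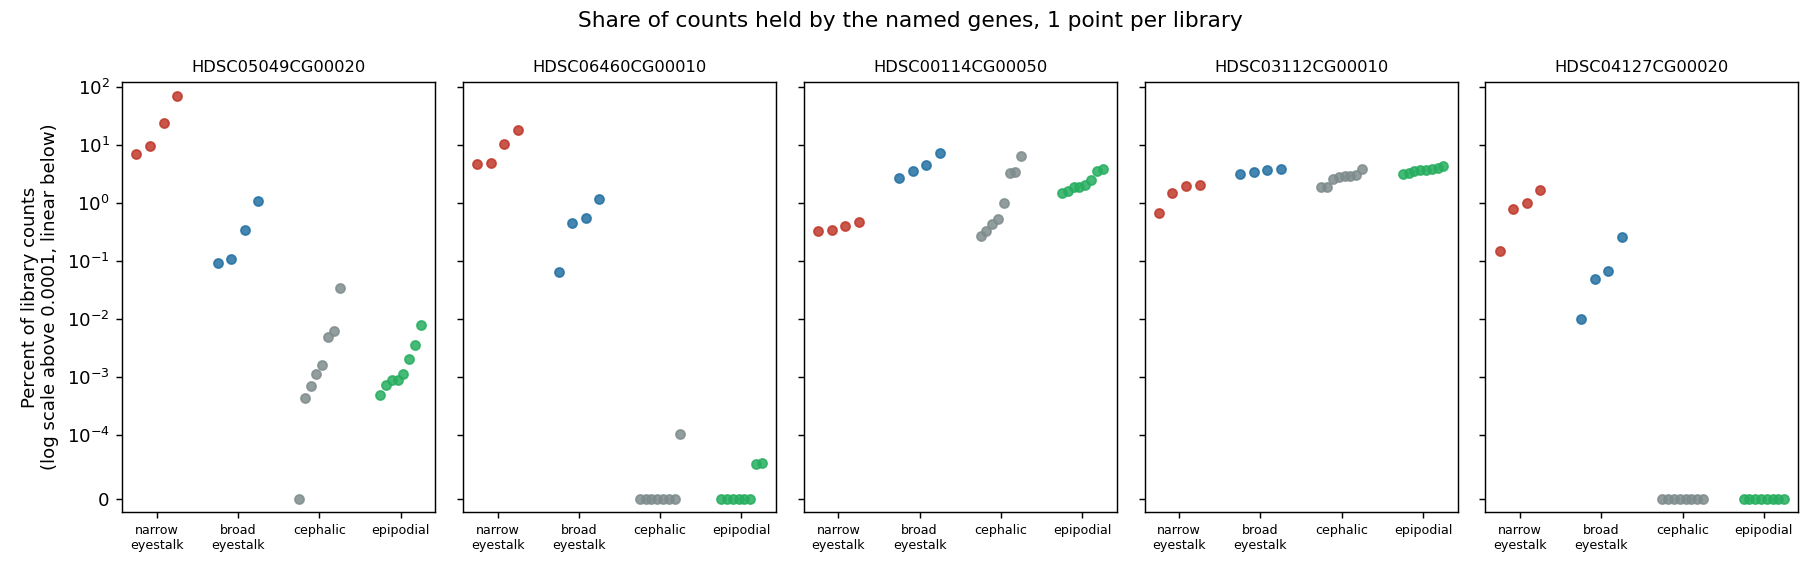
Share of library counts (percent, log axis above 0.0001 and linear below) of the 2 genes with the largest gain and the 2 with the largest loss in mean share between narrow and broad eyestalk libraries, and of HDSC04127CG00020, 1 point per library in ascending order, with the 8 cephalic and 8 epipodial libraries beside them. HDSC05049CG00020 and HDSC06460CG00010 lie above the broad libraries in every narrow library and are near 0 in the tentacles, and HDSC04127CG00020 is at 0 in all 16 tentacle libraries.

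The largest loss in mean share was that of HDSC00114CG00050 (coding length 1803). It held 0.326%, 0.341%, 0.459% and 0.405% in right replicates 1 and 2 and left replicates 2 and 3, and 2.73%, 7.23%, 3.49% and 4.51% in right replicates 3 and 4 and left replicates 1 and 4. The sets did not overlap (0.383% ± 0.0613 against 4.49% ± 1.97, SD, n = 4 each), and the narrow values were close together. The same low level was met in cephalic libraries: right replicates 3 and 4 held 0.427% and 0.526%, and left replicates 1 and 2 held 0.265% and 0.321%. The other cephalic libraries held 0.978% to 6.41%, and the epipodial ones 1.45% to 3.88%.

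The next loss, HDSC03112CG00010 (coding length 1377), was a matter of scaling. Its share was 1.49%, 0.661%, 1.99% and 1.98% in the narrow libraries, in the same order, and 3.88%, 3.34%, 3.11% and 3.68% in the broad ones. By share the sets did not overlap. TMM scaling, which sets library factors from the bulk of genes so that a few leading genes weigh little, placed the narrow set 0.28 higher on the log2 scale, with overlap. On library totals alone the log2 difference was -1.35, so the direction of this gene flips with the scaling.

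Counting on the TMM scale with a prior count of 2, HDSC05049CG00020 was 7.81 higher and HDSC06460CG00010 6.06 higher in the narrow set (log2), and HDSC00114CG00050 was lower (-1.87). That is short of a 4-fold change, but the gene passed it without overlap with RLE factors (-2.04), TMMwsp factors (-2.07) and library totals (-3.50). It also passed a 4-fold change without right replicate 2 (-2.03), right replicate 3 (-2.06) or left replicate 1 (-2.08). The factors show how much composition moved: 0.588 and 0.341 in right replicates 1 and 2 and 0.726 and 0.719 in left replicates 2 and 3. The broad factors were 1.12, 2.20, 2.20 and 1.76 in right replicates 3 and 4 and left replicates 1 and 4. Even after this scaling the median log2 difference of all 4608 genes that passed the filter was -0.92. It was -2.25 on library totals and -0.46 over all 14344 genes without the filter. Relative to the TMM median, HDSC00114CG00050 was at -0.96 and HDSC03112CG00010 at 1.20. That median depends on genes at 0 in a narrow library. Over the 2018 tested genes with counts in every eyestalk library, which include both of these genes, the median was 0.15. Such a choice leaves out every gene at 0 in a narrow library.

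At 4-fold with no overlap of the 4 and 4 libraries, 88 genes (1.91% of 4608) were higher and 575 (12.5%) lower in the narrow set. These are shares of all genes tested. The sets were chosen from these counts and no other split of the libraries was counted, so no background rate is given. Counted from the median in place of 0, 180 genes were higher and 346 lower, which moves the share of higher calls from 13.3% to 34.2%. On library totals 0.808% of the calls were higher. Without right replicate 2 the counts were 157 higher and 1456 lower of 5689 genes tested. Without right replicate 3 they were 124 and 1230 of 5514, and without left replicate 3 they were 148 and 953 of 5616. Without both right replicates 2 and 3, an alternative chosen after the data were seen, they were 207 and 1693 of 5332. No overlap is easier to meet with fewer libraries, so more calls are not by themselves an effect of the library left out.

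The 88 higher genes were few in weight apart from the leading pair. They held 44.6%, 79.2%, 22.5% and 13.0% of the counts in right replicates 1 and 2 and left replicates 2 and 3, and 0.589% to 3.03% in the broad libraries. Without that pair and HDSC04127CG00020, a gene described further on, they held 1.47%, 2.05%, 1.75% and 0.972%, against 0.426% to 0.557% in the broad libraries. By the same count the cephalic libraries held 0.482% to 1.66% and the epipodial ones 0.462% to 0.936%. The narrow values lay above all epipodial values, and right replicate 1 and left replicate 3 lay within the cephalic range.

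The 575 lower genes were chosen for low values in the narrow libraries, so their zeros there are a description only. Of them, 487 (84.7%) were at 0 in at least 1 narrow library, against 55.7% of all 4608 genes tested, and 51 were at 0 in all 4. Right replicate 1 had 384 of the 575 at 0 (66.8%), left replicate 2 had 366 (63.7%), left replicate 3 had 310 (53.9%) and right replicate 2 had 74 (12.9%). Over all 4608 genes the shares at 0 were 35.6%, 31.2%, 27.2% and 5.38% in the same libraries and 0.586% to 1.84% in the broad ones. No broad library had any of the 575 at 0, which the choice of the genes fixes. The cephalic libraries had 256 and 205 at 0 in right replicates 3 and 4 and 205 and 291 in left replicates 1 and 2, and 7 to 79 in the other 4. In the first 4 this was 44.5%, 35.7%, 35.7% and 50.6% of the 575, against 29.1%, 23.5%, 21.4% and 37.8% of all 4608 genes. These 4 libraries were also the shallowest of the cephalic ones, with totals of 473072, 1136338, 1146559 and 494495 against 1551059 to 1939936, and the part of depth in their zeros was not tested. The epipodial libraries had 4 to 24 (0.696% to 4.17%), against 1.13% to 2.08% of all 4608 genes.

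**Figure D2:**
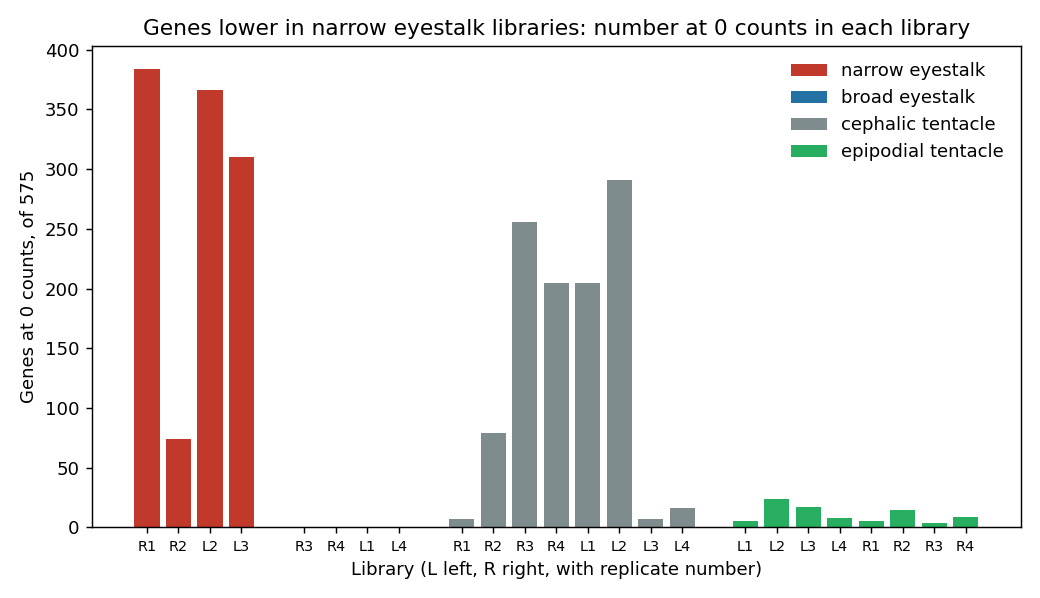
Number of the 575 genes called lower in narrow eyestalk libraries that had 0 counts, 1 bar per library (L left, R right, with the replicate number), coloured by eyestalk set or tentacle. The narrow bars stand at 310 to 384 apart from right replicate 2 at 74, the broad bars are at 0, and 4 of the 8 cephalic bars reach 205 to 291. Those 4 cephalic libraries also had 21.4% to 37.8% of all 4608 tested genes at 0.

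**Figure D3:**
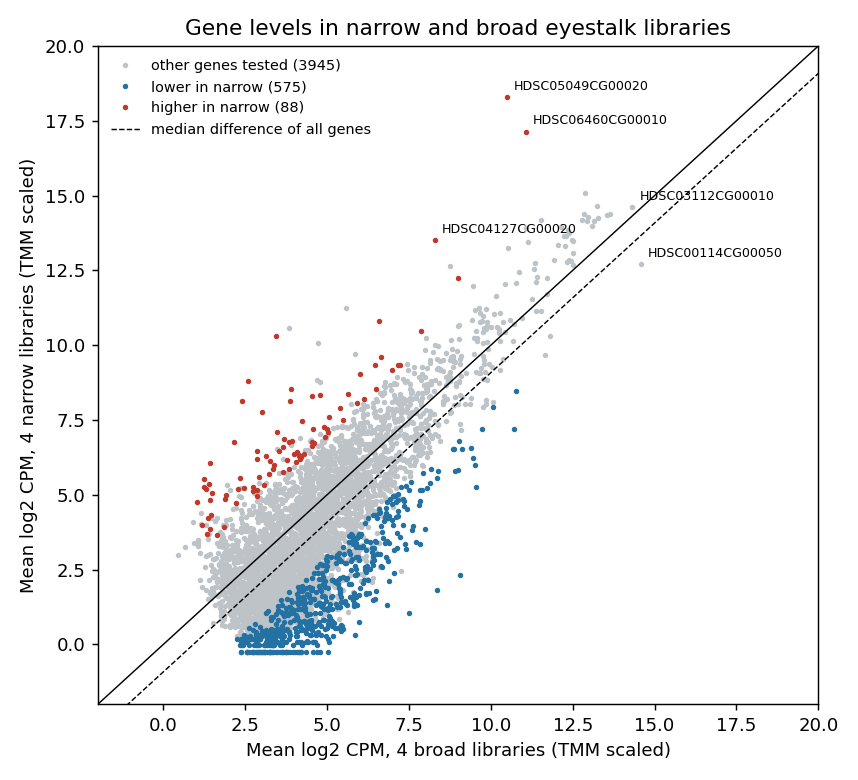
Mean TMM-scaled log2 CPM in the 4 narrow (vertical) and the 4 broad (horizontal) eyestalk libraries, 1 point for each of 4608 genes, with the 88 higher and 575 lower genes in colour, a solid line of equality and a dashed line at the median difference of -0.92. Low genes lie mostly below the line of equality, the higher ones around or above it, and HDSC05049CG00020 and HDSC06460CG00010 stand above all others in the narrow libraries.

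The size of the shift depended on which genes were counted. Many genes at 0 in a narrow library passed the filter through their counts in the broad libraries, so among genes of low level the filter itself favours those lower in the narrow set, and the values by level are given as a description. The median was -1.67 in the 1536 genes of lowest mean level, with 5 called higher and 285 lower, and of -1.01 in the next 1536, with 25 higher and 178 lower. In the 1536 genes of highest level the median was 0.06, with 58 higher and 112 lower. Of the 4608 genes, 2568 (55.7%) were at 0 in at least 1 narrow library and 163 (3.54%) in at least 1 broad library.

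The narrow libraries also spread more among themselves. The median SD of log2 levels was 1.71 within the narrow set and 0.61 within the broad set, and it was larger in the narrow set for 83.7% of genes. Part of this gap comes with the filter, which many genes passed through counts in the broad libraries while at 0 in a narrow one. Among the 1536 genes of highest level the SDs were 0.89 and 0.53. Fitted by edgeR, the biological coefficient of variation was 1.36 for the narrow and 0.571 for the broad set, and 1.47 for the narrow set without right replicate 2.

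The libraries also differed in detection at equal depth. When every library was reduced to 1692939 counts by exact expectation, right replicate 1 held 3682 genes, left replicate 2 held 4033 and left replicate 3 held 4341, while right replicate 2 held 7207. The broad libraries held 8251, 10917, 10608 and 10205 in right replicates 3 and 4 and left replicates 1 and 4. At this depth the 3 low libraries were below all others, and right replicate 2 lay between them and the broad set. At 100000 counts right replicate 2 held 2788 genes, among the 2428, 2772 and 2915 of the 3 low libraries, and the broad libraries held 4348 to 6233. The place of right replicate 2 thus depends on the depth.

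**Figure D4:**
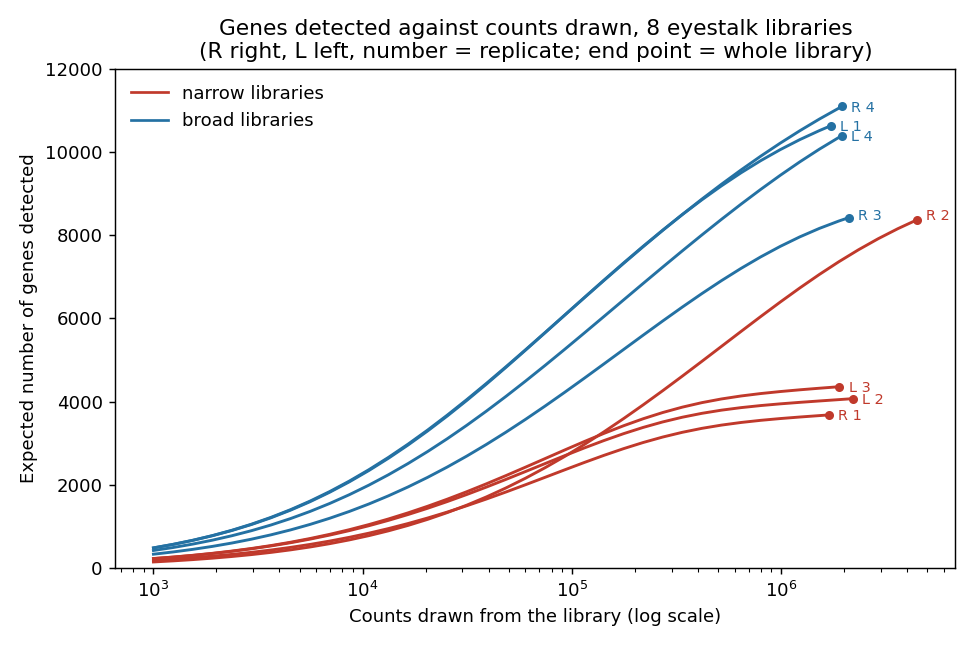
Expected number of genes detected against the number of counts drawn from each of the 8 eyestalk libraries, 1 line per library. The counts are on a log axis, narrow lines are red and broad lines blue, and each line ends at the whole library. Right replicate 1 and left replicates 2 and 3 level off at 3682 to 4360 genes, while the broad lines and right replicate 2 are still rising at their ends.

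The 3 low libraries were close to exhausted in genes. Drawing all counts in place of 50% of them added 118 genes in right replicate 1, 107 in left replicate 2 and 125 in left replicate 3. It added 782 in right replicate 2 and 624, 900, 738 and 976 in the broad libraries, in the order used above. Genes with exactly 1 count numbered 152, 154 and 163 in the 3 low libraries, or 4.13%, 3.78% and 3.74% of the genes detected. They numbered 962 (11.5%) in right replicate 2 and 712 (8.46%), 1170 (10.6%), 897 (8.44%) and 1249 (12%) in the broad libraries. In the low libraries 74.8%, 83.5% and 78.9% of the genes detected had 10 counts or more, against 49.6% in right replicate 2 and 54.6% to 60.7% in the broad libraries.

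The effective number of genes, the exponential of the Shannon entropy of the shares, was 53.6 and 9.28 in right replicates 1 and 2 and 121 and 120 in left replicates 2 and 3. In right replicates 3 and 4 and left replicates 1 and 4 it was 293, 697, 746 and 505. Leaving out HDSC05049CG00020 alone raised right replicate 2 from 9.28 to 259 and right replicate 1 from 53.6 to 91.8. Leaving out the 10 leading genes of each library gave 241, 707, 243 and 262 in the narrow set and 466, 1246, 1148 and 801 in the broad set. Right replicate 2 was then inside the broad range and the other 3 narrow libraries below it.

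Detection behaved the same way. With the 10 leading genes left out and the rest reduced to 745067 counts, right replicate 2 held 8213 genes, within the broad values of 7751 to 10142. Right replicate 1 and left replicates 2 and 3 held 3672, 3976 and 4286. The narrow composition of right replicate 2 thus rested on few genes, whereas the other 3 stayed below all broad libraries when their leading genes were removed.

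**Figure D5:**
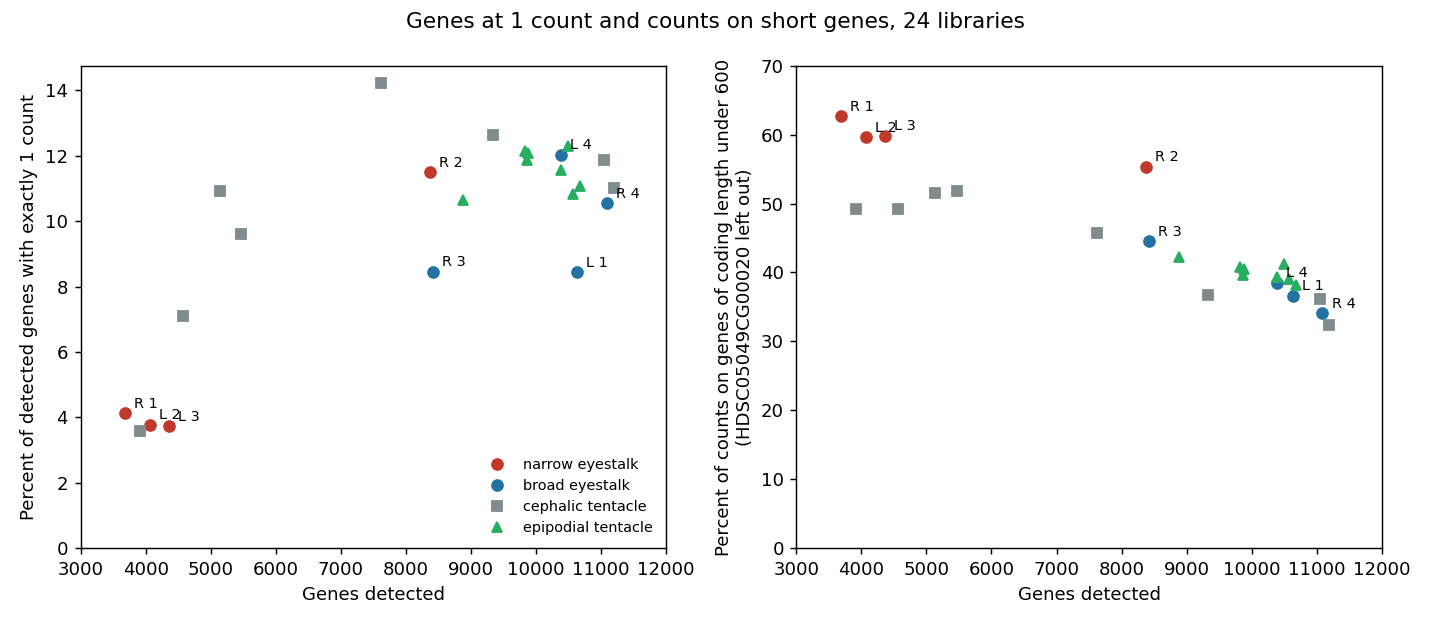
Genes with exactly 1 count as a percentage of the genes detected (left), and percentage of counts on genes of coding length under 600 with HDSC05049CG00020 left out (right), against the number of genes detected, 1 point for each of 24 libraries. On the left, right eyestalk replicate 1 and left replicates 2 and 3 sit together at 3.74% to 4.13% beside a cephalic library of 3919 genes, and on the right the 4 narrow libraries lie highest, at 55.3% to 62.6%.

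The genes detected differed from one low library to the next. Of 6406 genes detected in at least 1 of the 3 low libraries, 2794 (43.6%) were in exactly 1 and 2097 (32.7%) in all 3. Many genes found in 1 of the 3 alone had more than a few counts: right replicate 1 had 740 with a median count of 10, left replicate 2 had 916 with 14 and left replicate 3 had 1138 with 12. In the broad set, the genes found in 1 library only had median counts of 1 or 2, and 49.3% of the genes detected in the set were in all 4. Of 6766 genes detected in all 4 broad libraries, 30.1% were in all 4 narrow ones and 8.66% (586) in none. The reverse, a gene in all 4 narrow libraries and in no broad one, was met 0 times.

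Genes at 0 in the low libraries were most frequent at low levels and reached into middling ones. Among the 5091 genes with a mean of 1 to 10 CPM (counts scaled to a library total of 1000000) over all 24 libraries, 84.4%, 81.7% and 79.2% were at 0 in right replicate 1 and left replicates 2 and 3, 37.0% in right replicate 2 and 12.4% to 34.3% in the broad libraries. Among the 3299 genes with a mean of 10 to 100 CPM, 42.8%, 35.8% and 32.2% were at 0 in the 3 low libraries, in the same order. The same share was 7.76% in right replicate 2 and 2.12% to 3.24% in the broad libraries. Among the 760 genes at 100 to 1000 it was 4.47%, 4.61% and 2.63% in the low libraries and 1.05% or less in the other 5. Of the 124 genes above 1000, 0 were at 0 in a narrow library, and 1 was at 0 in each of broad right replicate 4 and left replicate 4.

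A set of genes chosen without the eyestalk gave the same order. There were 965 genes at 50 CPM or more in each of the 8 epipodial libraries. Counting only those expected to have at least 50 counts from their epipodial level, with the expectation scaled to the library's own counts on the set less its 50 highest genes, right replicate 1 had 52 of 940 at 0, left replicate 2 had 47 and left replicate 3 had 26. Right replicates 2 and 3 had 2 each, and right replicate 4 and left replicates 1 and 4 had 0. In the 3 low libraries together 99 of the 965 genes were at 0 in at least 1, of which 80 were at 0 in exactly 1, 9 in 2 and 10 in all 3. The SD of their log2 ratio to the epipodial mean was 2.33, 2.32 and 1.99 in the low libraries, 1.83 in right replicate 2, and 1.14 to 1.28 in the broad libraries. By the same count, left cephalic replicate 2 had 40 of 766 genes at 0 and left cephalic replicate 1 had 16 of 964. Right cephalic replicates 3 and 4 had 12 of 620 and 11 of 963. In these libraries the SD was 2.18, 2.01, 1.81 and 2.01, in the order given. The remaining cephalic libraries had 0 to 2 genes at 0 and smaller SDs.

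Genes typical of the eyestalk against the tentacles were looked for in 1018 genes with no count in any tentacle library. This strict cut left out HDSC06460CG00010, which had 2 counts in the cephalic and 2 in the epipodial libraries. That gene alone held 4.68% to 18.2% of narrow and 0.0627% to 1.17% of broad libraries, so the set below is only a part of such genes. The share of the 1018 genes was 0.807%, 1.68%, 0.999% and 0.164% in right replicates 1 and 2 and left replicates 2 and 3. It was 0.0307%, 0.0854%, 0.307% and 0.0919% in right replicates 3 and 4 and left replicates 1 and 4. A single gene, HDSC04127CG00020 (coding length 381, chosen after its values were seen), held 96.4% of these counts. Its shares were 0.795%, 1.66%, 0.982% and 0.147% in the narrow libraries, and 0.00975%, 0.0476%, 0.261% and 0.0661% in the broad ones. The sets overlapped by share, since left replicate 1 lay above left replicate 3, but not on the TMM scale.

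Without that gene, the other tentacle-absent genes held 0.0125%, 0.0235%, 0.0173% and 0.0170% in the narrow libraries and 0.0209%, 0.0379%, 0.0455% and 0.0257% in the broad ones. The groups overlapped by share. Divided by the TMM factors, the shares were 0.0212, 0.0688, 0.0238 and 0.0236 in the narrow libraries and 0.0187, 0.0172, 0.0207 and 0.0146 in the broad ones, so that every narrow library lay above every broad one, with right replicate 2 far above the rest. With the RLE or TMMwsp factors, chosen like the TMM division after the data were seen, the groups overlapped. Right replicate 1 and left replicates 2 and 3 detected 30, 33 and 36 of the 1018 genes, right replicate 2 detected 200, and the broad libraries 132 to 300. The order of the sets for these genes thus depends on the scaling. The 500 genes of highest level in the epipodial tentacle held 49.0%, 15.9%, 66.8% and 76.4% of the counts in the narrow libraries and 83.6%, 69.2%, 68.7% and 75.9% in the broad ones, and these ranges overlapped as well.

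The share of counts on short genes depended on which leading genes were set aside. Without HDSC05049CG00020, genes of coding length under 600 held 62.6%, 55.3%, 59.6% and 59.8% of the counts in the narrow libraries, and 44.6%, 34.1%, 36.7% and 38.5% in the broad ones. With the gene kept in, right replicate 2 had 16.2%, so that the sets overlapped. The other leading gene, HDSC06460CG00010, is itself short. With both left out, the shares were 50.8%, 46.8%, 54.4% and 57.6% in the narrow libraries and 44.5%, 33.8%, 35.9% and 38.2% in the broad ones. With HDSC04127CG00020 also left out, a step chosen like the one before after the data were seen, right replicate 2 had 43.0% and lay below right replicate 3 with 44.5%, so the sets overlapped again. The median log2 difference was -0.70 for the 1655 tested genes under 600, -0.93 for the 1559 of 600 or more and under 1200, and -1.15 for the 1394 longer ones. Among genes of highest level it was 0.30, 0.06 and -0.24. RNA quality values were not analysed here, and the part of fragment length or RNA quality in this difference was not tested.

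In the cephalic tentacle the libraries with few genes detected had low totals as well. Left cephalic replicate 2 detected 3919 genes with 141 at 1 count, and 49.2% of its counts were on genes under 600. Right cephalic replicates 3 and 4 and left replicate 1 detected 4568, 5137 and 5471 genes, with short-gene shares of 49.3%, 51.5% and 51.8%. The remaining cephalic libraries detected 7622 to 11197 genes with 32.4% to 45.7%, and the epipodial ones 8876 to 10678 genes with 38.2% to 42.3%. Reduced to 473072 counts, left replicate 2, right replicates 3 and 4 and left replicate 1 held 3913, 4568, 4486 and 4829 genes, and the other 4 held 6076 to 9103. The order of these 2 sets of cephalic libraries was thus the same at equal depth, and the 2 leading eyestalk genes were near 0 in all of them. Neither tissue content nor library complexity was tested as a cause of the sets.

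The tentacle libraries were not used to choose the sets and could be tested. Each was assigned to the set of the eyestalk library with its replicate number and side, though the labels do not say that a number stands for an animal. In the eyestalk, deviations from the side mean correlated between left and right at -0.14, 0.35, 0.27 and 0.69 in numbers 1 to 4. For left replicates 2, 3 and 4 this was the highest value with any right library. Left replicate 1 had 0.37 with right replicate 4. These deviations also carry the difference between the sets, and numbers 1 and 3 each join a narrow and a broad library. The check therefore cannot decide whether the numbers are pairs. If a number does not link organs of an animal, these tests do not bear on the sets. If it does, the main tests treat left and right libraries of an animal as independent. With edgeR's quasi-likelihood test and Benjamini-Hochberg adjustment, 0 of 4871 genes (0%) were called in the cephalic tentacle, where 213 (4.37%) had an unadjusted p under 0.05. In the epipodial tentacle 0 of 6228 genes were called with 147 (2.36%) at an unadjusted p under 0.05. By DESeq2 the calls numbered 10 and 0. Fits without 1 cephalic library made 0 to 15 calls: 4 without right replicate 3, 2 without right replicate 4, 15 without left replicate 1, 1 without left replicate 2 and 2 without left replicate 3.

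At 473072 counts, the cephalic partners of narrow eyestalk libraries held 7007 ± 2487 genes and those of broad ones 5315 ± 1383 (SD, n = 4 each). The difference of 1692 genes was opposite in sign to that in the eyestalk and within the spread between libraries (two-sided exact permutation p = 0.257, adjusted p = 0.514 over the 2 organs). By the effective number of genes the cephalic partners had 543 ± 254 and 243 ± 123 (exact permutation p = 0.0857, not adjusted). At 1700095 counts the epipodial partners held 9887 ± 832 and 9929 ± 253 genes (exact permutation p = 0.943). The smallest p that 4 against 4 libraries allow is 0.0286. These tests compare partners of the sets, and the narrow set includes right replicate 2 with its 8371 genes, so partners of low-detection libraries as such were not compared.

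The study's own comparison, left against right eyestalk, was fitted with the set as an added term. Of 5745 genes 0 were called by edgeR's quasi-likelihood test with Benjamini-Hochberg adjustment (0%), and 13 (0.226%) had an unadjusted p under 0.05. DESeq2 and limma-voom also called 0, with 2.96% and 1.67% of genes at an unadjusted p under 0.05. Without any difference between the sides, a share near the threshold of 0.05 would be met. All 3 fits lay below it and were thus strict, so their 0 calls do not show that the sides are alike. Both sides held 2 narrow and 2 broad libraries, so the sets do not stand in for side.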

How the data were processed

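Polyadenylated RNA of 24 excised organs was sequenced. Per the labels' protocols, extraction used TRIzol and the VAHTS Universal V6 kit made the libraries. Tools listed by the submitters' processing notes are fastp, HISAT2 and HTSeq, with no version. Genome build, annotation and strand setting were not given in the sources used here, so overlapping genes and near-identical copies are uncertain. The deposited table holds raw read counts per gene, with no normalization by the authors, as whole numbers whose totals differ between libraries. FPKM values deposited by the authors were used only to recover each gene's coding length, which was whole within 0.001 for 100% of 17233 genes and divisible by 3 for 99.4%. Counts without molecular identifiers are not independent molecules, and intervals cover counting error only.

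Groups follow the tissue labels and replicate numbers the titles. For the epipodial libraries the letter of the title conflicts with the tissue label, which was used. No libraries were near-identical, the smallest chi-square per gene being 4.69. The members and the lists of genes were chosen with earlier results of these data known. The named genes are the 2 with the largest gain and the 2 with the largest loss in mean share, plus any gene above 50% of a library. Marker lists could not be matched to identifiers.

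Counts were analysed with edgeR 4.0.16 in R 4.3.3 (filterByExpr, TMM factors, prior count of 2, robust quasi-likelihood test, Benjamini-Hochberg threshold 0.05), which was tested on simulated data. The comparison of the sets has no test and uses a 4-fold change without overlap. Detection was compared at a common depth by exact expectation, and single values by two-sided exact permutation over 70 splits. The widest 95% Wilson interval of a printed eyestalk share of the 4 genes named by the rule was ± 5.54% of the share, and ± 14.7% with HDSC04127CG00020 included. That gene's 0 counts of 26208061 in the tentacles allow a share of up to 1.14e-05% (3 counts). DESeq2 1.42.0, limma 3.58.1, other scalings, filters, folds, blocks and libraries left out in turn were the alternatives.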

Additional observations from a re-analysis of the deposited data

Results flagged for a closer look

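Right eyestalk replicate 2 stood apart from its group in 3 of 40 checks of groups of 4 libraries, in each of which the gap to the nearest library was above Dixon's critical value at the 95% level, as a share of the range. Its total of 4479096 counts was far above those of the other right eyestalk libraries. Among the narrow eyestalk libraries it detected 8371 genes, far more than the other 3, and had 962 genes with exactly 1 count. The narrow set was itself formed from detection and the leading gene's share, and the checks share libraries. Such a gap arises by chance in about 1 of 20 groups.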

How the results depend on the processing

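On library totals alone 14 genes were higher and 1718 lower in the narrow set. A fold of 2 gave 188 higher. Without the filter on low counts 969 were lower. Differences counted from the median gave 180 higher and 346 lower, and without right eyestalk replicates 2 and 3 there were 207 higher and 1693 lower, both chosen after seeing the data. Leaving out 1 library at a time gave 68 to 157 higher and 583 to 1456 lower genes. These fits also test other numbers of genes, and no overlap is easier to meet with fewer libraries. HDSC03112CG00010 was reversed on library totals (-1.35), and the other 3 named genes kept their direction in every alternative run. The narrow mean of genes detected minus the broad mean was -5179 genes at the common depth and -2827 at 100000 counts.

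In the cephalic tentacle DESeq2 called 10 genes, the fit without a filter 9, and the fits without 1 library 0 to 15. In the epipodial tentacle the fit without a filter called 169 and the replicate block 1. The epipodial difference in detection was reversed for the effective number of genes (8.77) and with side by the letter of the title (416). The causes were not tested.

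Left and right eyestalks of a number had correlated deviations of -0.14, 0.35, 0.27 and 0.69 in numbers 1 to 4. These also carry the difference between the sets, so they cannot decide whether the numbers are pairs. With side, set and replicate block the left-right comparison called 3 genes, and with side and block, with side alone and in each fit with set and side that left out 1 library it called 0.

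Limits: the sets were chosen from the counts described, each holds 4 libraries, right replicate 2 differs from the other narrow libraries, and identifiers carry no names. Low counts limit the detection of genes under 10 CPM most.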
